A study of Homo sapiens with 3 samples.

Results

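The protocadherin genes of a human hepatocellular carcinoma cell line were described in 3 RNA sequencing libraries. The members were all genes whose symbol began with PCDH in any of the 3 expression files, and a member absent from a file was set to 0. They numbered 46 of 16149 genes, of which 4 belonged to the alpha class, 18 to the beta class, 19 to the gamma class and 5 to the non-clustered protocadherins. The symbol alone chose them, but the files list only genes above 0, so a gene with no reads in any library could not become a member.

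The libraries came from cultured HCCLM3 cells, an established hepatocellular carcinoma line, with 1 library for each of 3 groups, all grown in DMEM with no treatment named. The parent is labelled as low in metastasis ability, subclone 1 as higher and specific to the lung, and subclone 2 as dual, reaching the lung and the celiac lymph node. The study describes its parental cells as a derivative that carries red fluorescent protein, and its subclones as single-cell clones taken from xenograft metastases in nude mice, so that each subclone library stands for 1 clone whose name was not given. The study's methods, unlike the label, give its parental cells a high metastatic potential, so that the rank of the parent in metastasis is not settled by the sources. The question put to the libraries was which genes differ between cells with different organ tropism. With 1 library per group no test between groups was possible, and every interval given here covers counting error only, not the spread between cultures or clones.

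Protocadherins are the largest family of the cadherin superfamily, transmembrane proteins whose extracellular cadherin repeats bind between neighbouring cells. The clustered genes lie in tandem arrays on chromosome 5. In the alpha and gamma arrays each first exon has a promoter of its own and is spliced to constant exons shared by the whole array, whereas the beta genes are single-exon genes without constant exons. In neurons each cell uses a few of these promoters, chosen with the help of CTCF, cohesin and DNA methylation, and so carries its own combination of surface proteins. The non-clustered genes are scattered over the genome and have their own cytoplasmic tails.

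Promoter sequences are shown for the 3 members with a 2-fold difference beyond counting error (PCDH7, PCDH1 and PCDH9) and for 1 beta and 1 gamma gene with promoter entries and levels near the top of their class (PCDHB2 and PCDHGC3). They were taken from RefSeq on GRCh38.p14 and span 250 bases before to 50 bases after the annotated start. Capitals mark the letters CGCT, or AGCG where they are read on the other strand. CGCT is the core of a conserved element of clustered protocadherin promoters. The PCDH7 window is chr4:30720119-30720418 on the plus strand, the PCDH1 window chr5:141869578-141869877 on the minus strand and the PCDH9 window chr13:67230287-67230586 on the minus strand. The PCDHB2 window is chr5:141094365-141094664 and the PCDHGC3 window chr5:141475716-141476015, both on the plus strand.
PCDH7: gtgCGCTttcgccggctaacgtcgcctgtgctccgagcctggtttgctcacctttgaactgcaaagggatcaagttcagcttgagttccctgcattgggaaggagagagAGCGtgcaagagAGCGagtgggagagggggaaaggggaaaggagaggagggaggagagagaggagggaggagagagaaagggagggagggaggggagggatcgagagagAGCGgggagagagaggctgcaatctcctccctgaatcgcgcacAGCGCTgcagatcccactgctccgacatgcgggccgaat
PCDH1: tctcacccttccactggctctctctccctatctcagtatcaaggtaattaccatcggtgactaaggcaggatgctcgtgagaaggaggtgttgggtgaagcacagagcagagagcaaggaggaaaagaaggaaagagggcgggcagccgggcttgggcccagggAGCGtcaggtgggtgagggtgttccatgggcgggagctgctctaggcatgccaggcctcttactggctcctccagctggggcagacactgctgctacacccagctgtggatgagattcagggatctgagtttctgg
PCDH9: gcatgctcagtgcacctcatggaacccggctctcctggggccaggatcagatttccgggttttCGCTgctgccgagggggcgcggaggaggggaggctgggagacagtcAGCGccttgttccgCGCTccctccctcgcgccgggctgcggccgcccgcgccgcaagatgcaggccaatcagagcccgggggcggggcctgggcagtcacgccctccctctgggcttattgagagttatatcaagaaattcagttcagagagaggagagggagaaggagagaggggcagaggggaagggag
PCDHB2: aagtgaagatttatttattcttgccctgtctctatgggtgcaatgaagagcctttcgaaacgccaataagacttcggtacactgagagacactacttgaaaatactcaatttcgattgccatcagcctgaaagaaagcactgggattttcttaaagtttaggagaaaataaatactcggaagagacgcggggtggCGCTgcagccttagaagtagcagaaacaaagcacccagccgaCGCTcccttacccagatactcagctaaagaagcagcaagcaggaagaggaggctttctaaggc
PCDHGC3: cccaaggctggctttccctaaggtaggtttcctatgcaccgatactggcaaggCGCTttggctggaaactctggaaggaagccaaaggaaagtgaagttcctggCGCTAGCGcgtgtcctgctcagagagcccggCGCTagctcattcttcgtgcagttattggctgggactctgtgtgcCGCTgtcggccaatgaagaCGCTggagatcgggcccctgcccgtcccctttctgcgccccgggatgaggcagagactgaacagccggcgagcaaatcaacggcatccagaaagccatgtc

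RefSeq promoters were found for 38 of the 46 members, and a gene can have more than 1 entry. CGCT, on either strand, was present in 36 of the 37 entries of clustered members (97.3%), against 70.0% of all 35116 promoter entries. It was found in 13 of 13 beta entries and 20 of 20 gamma entries, and in 3 of 4 alpha entries, where PCDHA9 had none. The clustered windows were poorer in G and C, with a median of 42.0% against 58.7% over all entries. The non-clustered members held CGCT in 5 of 8 entries, or 62.5%.

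The letters CCCTC, after which CTCF was named, were also counted on either strand. None of the 4 alpha or 13 beta entries held them, while 11 of the 20 gamma entries did, against 71.2% of all promoter entries. The non-clustered members held them in 5 of 8 entries, or 62.5%. PCDH7 held 7 copies, PCDH1 held 2 and PCDH9 held 9, while some entries of PCDH11X and PCDH11Y held none. Clustered genes that no library listed had the letters too: CGCT was present in 9 of 9 entries of unlisted alpha genes and in 5 of 5 entries of unlisted gamma genes. These matches describe the letters only.

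RPKM are reads scaled to gene length and to the library total, and the steps between their values gave totals of 4488825 reads in the parent library, 4609696 in subclone 1 and 4725150 in subclone 2. Whole numbers of reads could be given to 45 of the 46 members. Most members stood low. The parent listed 39 members above 0, subclone 1 listed 37 and subclone 2 listed 39, while 23 members had a mean RPKM below 0.2 over the 3 libraries. A mean RPKM of at least 1 was reached by 10 members, and by 11370 of all 16149 genes. RefSeq holds 73 genes whose symbols begin with PCDH, and 27 of them had no value in any library. These were 12 alpha genes, PCDHB1, 5 gamma genes and 9 non-clustered genes, among them PCDH10, PCDH17, PCDH18 and PCDH19.

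PCDH7, a non-clustered protocadherin known to bind protein phosphatase 1 and the phosphatase inhibitor SET, was the member with the highest level in each library. Its RPKM was 3.60 in the parent (141 reads), 11.4 in subclone 1 (457 reads) and 10.5 in subclone 2 (434 reads). Both subclones stood above the parent, and their exact Poisson intervals (10.3 to 12.4 in subclone 1 and 9.56 to 11.6 in subclone 2) did not reach that of the parent (3.03 to 4.24). The ratio over the parent was 3.16 in subclone 1 (95% counting interval 2.61 to 3.84) and 2.92 in subclone 2 (2.41 to 3.56). Between the subclones the interval of the ratio held 1 (0.926, 0.811 to 1.06). In the parent 39.2% of the listed genes stood at or below the level of PCDH7, against 62.8% in subclone 1 and 60.6% in subclone 2. In bulk RNA, fewer cells that express a gene and less of its RNA per cell cannot be told apart.

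PCDH1, a protocadherin known from airway and other epithelia and as an entry receptor of some hantaviruses, was near the limit of detection in the parent and present in both subclones. Its RPKM was 0.0466 in the parent, which is 1 read, 0.953 in subclone 1 (21 reads) and 1.59 in subclone 2 (36 reads). The intervals were 0.00118 to 0.260 in the parent, 0.590 to 1.46 in subclone 1 and 1.12 to 2.21 in subclone 2, so both subclones stood clear of the parent. With 1 read in the parent the size of the ratio was poorly fixed, at 20.4 in subclone 1 (3.29 to 846) and 34.2 in subclone 2 (5.76 to 1388). Subclone 2 stood above subclone 1 by a ratio of 1.67 whose interval held 1 (0.950 to 3.02). The mean RPKM of PCDH1 was 0.865, so that it was not among the genes above the minimum of 1.

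PCDH9, a non-clustered protocadherin best known from the nervous system, had the opposite order. Its RPKM was 0.608 in the parent (17 reads), 0.104 in subclone 1 (3 reads) and 0.238 in subclone 2 (7 reads). The parent stood highest, and its interval (0.354 to 0.973) did not overlap that of subclone 1 (0.0215 to 0.305) but overlapped that of subclone 2 (0.0955 to 0.490). The ratio over the parent was 0.172 in subclone 1 (0.0323 to 0.594) and 0.391 in subclone 2, where the upper end of the interval lay just under 1 (0.137 to 0.993). The ratio of subclone 2 over subclone 1 was 2.28 with an interval that held 1 (0.520 to 13.6). The remaining non-clustered members, PCDH11X and its near-identical partner PCDH11Y on the other sex chromosome, were listed at no more than 0.131 RPKM in any library. Their transcripts share much of their sequence, so that reads of the pair could have been split between them, and no difference is given.

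**Figure D1:**
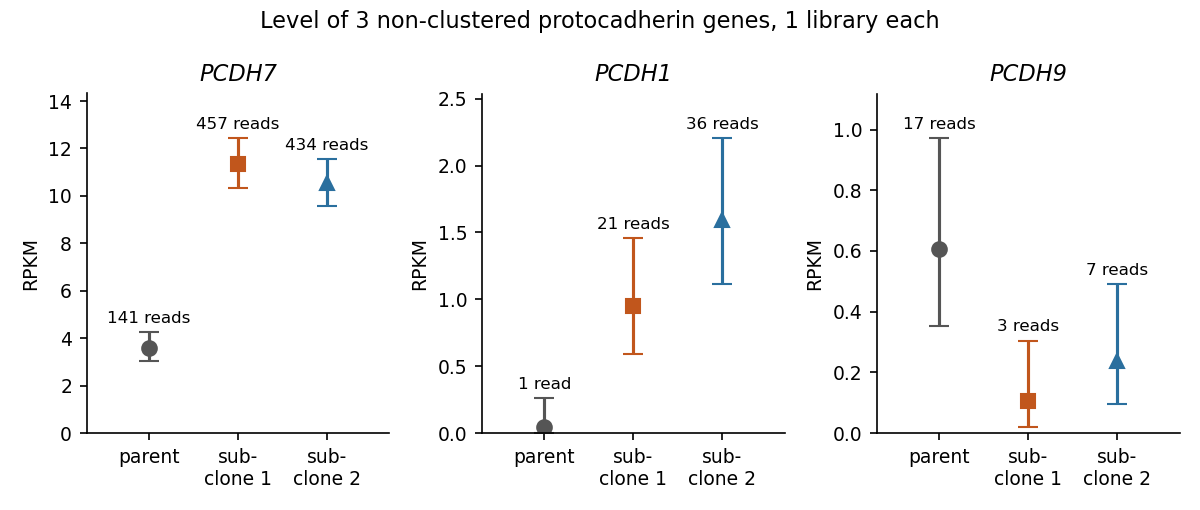
RPKM of PCDH7, PCDH1 and PCDH9 (y axes, each from 0) in the parent, subclone 1 and subclone 2 (x axes, 1 library each), where points are RPKM, bars are exact 95% Poisson intervals of the reads and labels give the reads. PCDH7 has 141 reads in the parent and 457 and 434 in the subclones, PCDH1 has 1, 21 and 36, and PCDH9 stands highest in the parent with 17 reads.

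Calls were read against all genes. On log2 of (RPKM + 0.1), 1 of the 10 members with a mean RPKM of at least 1 exceeded the parent at least 2-fold in subclone 1, namely PCDH7, against 4.90% of the 11370 genes. None of the 10 was at least 2-fold lower, against 1.82%. In subclone 2 over the parent the member at least 2-fold higher was again PCDH7, against 5.33% of all genes, and none was lower, against 2.16%. Between the subclones none of the 10 differed 2-fold, where 1.42% of all genes were higher and 1.39% lower in subclone 2. With so few members, 1 of 10 cannot be set apart from these shares.

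The log2 ratio of PCDH7 over the parent was 1.63 in subclone 1, where 217 of the 11370 genes had an equal or higher ratio, and 1.52 in subclone 2, where 271 did. The median log2 ratio of the 10 members was 0.29 in subclone 1 over the parent, beside 0.00 over all 11370 genes, and 0.32 in subclone 2 over the parent, beside 0.04. For subclone 2 over subclone 1 the medians were -0.02 and 0.03. Both comparisons with the parent share its 1 library. PCDHB14, PCDHGB2 and PCDHGB5 stood below 1 RPKM in the parent and above 1 in both subclones. They reached the minimum on the mean only through the subclones, so the filter can itself raise the medians over the parent. No shift of the members is read from these medians.

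A second rule set no minimum on RPKM but asked for a 2-fold difference whose counting interval left out 1, among genes with a read in either library. In subclone 1 over the parent it called PCDH1 and PCDH7 higher, 2 of 41 members, against 4.00% of 15320 genes, and PCDH9 lower, 1 of 41, against 1.46%. In subclone 2 over the parent it called the same 3 genes in the same directions, 2 of 44 members higher, against 4.45%, and 1 lower, against 1.76%. Between the subclones it called 0 of 42 members in either direction, where 1.14% of all genes were higher and 1.20% lower. All 3 genes that it called were non-clustered, and no clustered member passed it in any pair.

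**Figure D2:**
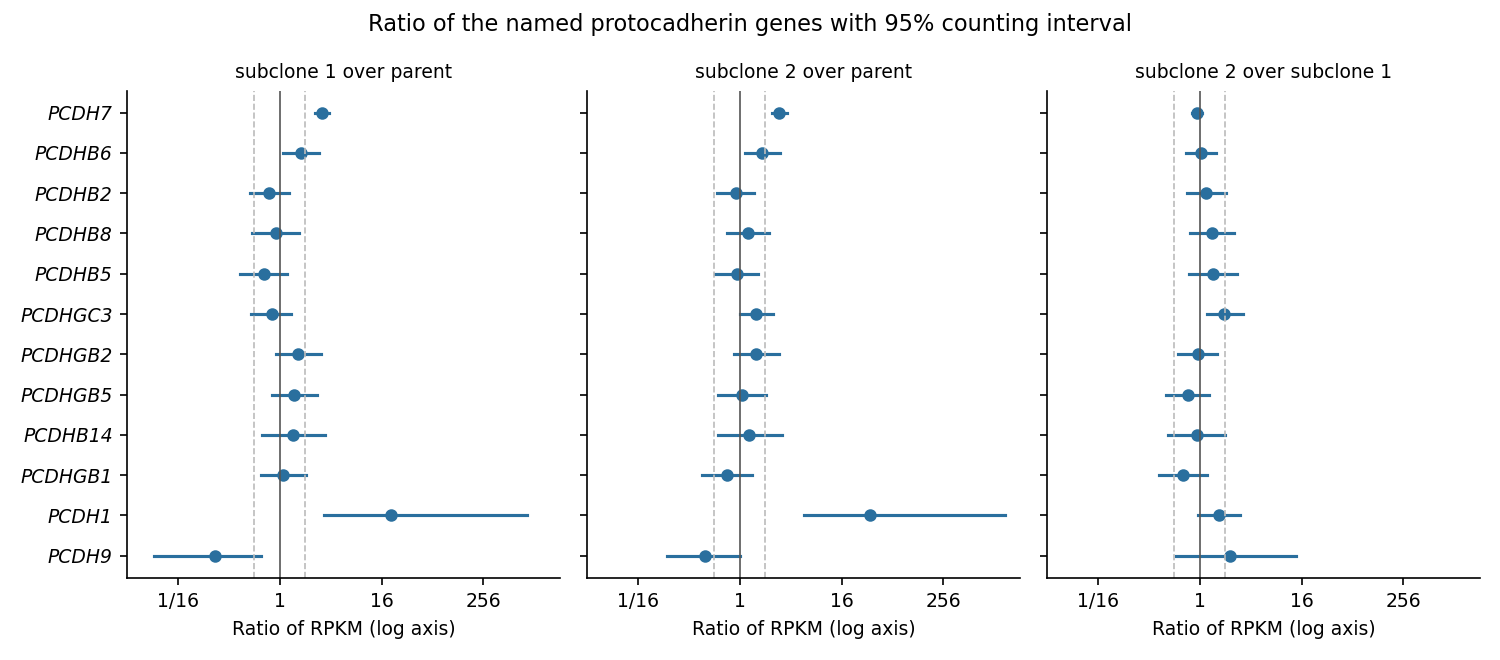
Ratio of RPKM (x axes, log scale) for the 10 members with a mean RPKM of at least 1 and for PCDH1 and PCDH9 (y axis) in 3 pairs of libraries, where points are ratios, lines are 95% counting intervals, the solid vertical line marks 1 and the dashed lines mark 2-fold. Over the parent, the intervals of PCDH7 and PCDH1 lie above 2-fold in both subclones, and in the right panel only PCDHGC3 has an interval that leaves out 1.

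The beta genes held the highest levels among the clustered members. PCDHB6 was the one whose intervals left out 1 over the parent, with an RPKM of 2.06 in the parent (28 reads), 3.65 in subclone 1 (51 reads) and 3.77 in subclone 2 (54 reads). Its ratio was 1.77 in subclone 1 (1.10 to 2.92) and 1.83 in subclone 2 (1.14 to 3.00), under 2-fold in both. Between the subclones the ratio of PCDHB6 was 1.03 (0.691 to 1.55). The RPKM of PCDHB2 was 2.85 in the parent cells, 2.14 in subclone 1 and 2.56 in subclone 2. PCDHB8 stood at 1.89 in the parent cells, 1.68 in subclone 1 and 2.34 in subclone 2. PCDHB5 stood at 2.06, 1.33 and 1.88 in the same order, and PCDHB14 at 0.877, 1.24 and 1.14. For these 4 beta genes the intervals of all 3 ratios held 1, and the widest difference was that of PCDHB5 in subclone 1 over the parent (0.649, 0.337 to 1.22).

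The order of the beta genes differed between libraries. PCDHB2 led the class in the parent, whereas PCDHB6 led it in both subclones. The lead of PCDHB2 over PCDHB6 in the parent lay within counting error, since PCDHB6 had an interval of 1.37 to 2.98 there. The other 13 beta genes had a mean RPKM below 1, the highest single value being 1.14 for PCDHB15 in subclone 1, and 5 of them had at most 3 reads in every library. Reads of near-identical beta genes could have been split or lost in counting. The share of 50-base windows of a beta transcript that also occur in another protocadherin gene had a median of 14.4%, and it was 45.8% for PCDHB8, 37.9% for PCDHB2 and 14.7% for PCDHB6. For PCDH7, PCDH1 and PCDH9 it was 0%.

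Among the gamma genes, 4 had a mean RPKM of at least 1. PCDHGC3, a C-type gene at the end of the array that is known from many tissues outside the brain, had an RPKM of 1.56 in the parent (33 reads), 1.24 in subclone 1 (27 reads) and 2.42 in subclone 2 (54 reads). Subclone 2 stood highest, and its ratio over subclone 1 was 1.95 (1.21 to 3.22), under 2-fold on the log2 scale with the added 0.1 (0.91). The ratio of subclone 2 over the parent was 1.55 with an interval that held 1 (0.990 to 2.47). This was the only clustered member with an interval that left out 1 between the subclones. It was 1 of 9 clustered members with a mean RPKM of at least 1. Of all genes at that minimum, 11.7% had an interval above 1 and 8.57% below 1 in that pair, so 1 of 9 cannot be set apart.

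The remaining 3 were B-type gamma genes. PCDHGB2 had an RPKM of 0.920 in the parent cells, 1.51 in subclone 1 and 1.43 in subclone 2. PCDHGB5 had 0.973, 1.42 and 1.02 in the same order, and PCDHGB1 had 1.12, 1.23 and 0.784. All of their intervals held 1, with the largest ratio for PCDHGB2 in subclone 1 over the parent (1.64, 0.902 to 3.06). The other 15 gamma genes had a mean RPKM below 1, with at most 18 reads in any library. Of these, 10 had at most 3 reads in every library and 9 were at 0 in some library. A value of 0 is a weak statement here: PCDHGA9 was at 0 in the parent, and 3 reads, the limit that 0 allows, would be 0.145 RPKM.

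The gamma genes end in shared exons, so their counting was checked. In the GENCODE transcripts 21 gamma genes ended in the same 2181 bases, and 14 alpha genes in the same 2180 bases. For 16 gamma members the recovered gene length lay closest to a whole GENCODE transcript. These lengths were 4578 to 4872 bases, long enough to hold the constant exons, but the range follows in part from how the 16 were picked. PCDHGB3, PCDHGC5 and PCDHGB8P, at 2298, 2321 and 1973 bases, lay closest to shorter transcripts. Lengths of members with few reads can also be off by a whole multiple. Of the 16, 7 had at most 3 reads in every library and 6 were at 0 in some library, beside 54 reads for PCDHGC3 in subclone 2. Reads of the constant exons had therefore not been added to every gamma gene. Whether they were given to 1 gene, divided or dropped was not stated in the sources used here, and the levels of single gamma genes are uncertain to that extent.

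The alpha genes were close to 0. PCDHA9 was listed in all 3 libraries with 0.105 RPKM in the parent cells, 0.136 in subclone 1 and 0.0994 in subclone 2, which is 3 or 4 reads each. PCDHA1, PCDHA2 and PCDHA5 had at most 2 reads in any library. The whole class had 3 reads in the parent cells, 5 in subclone 1 and 7 in subclone 2.

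**Figure D3:**
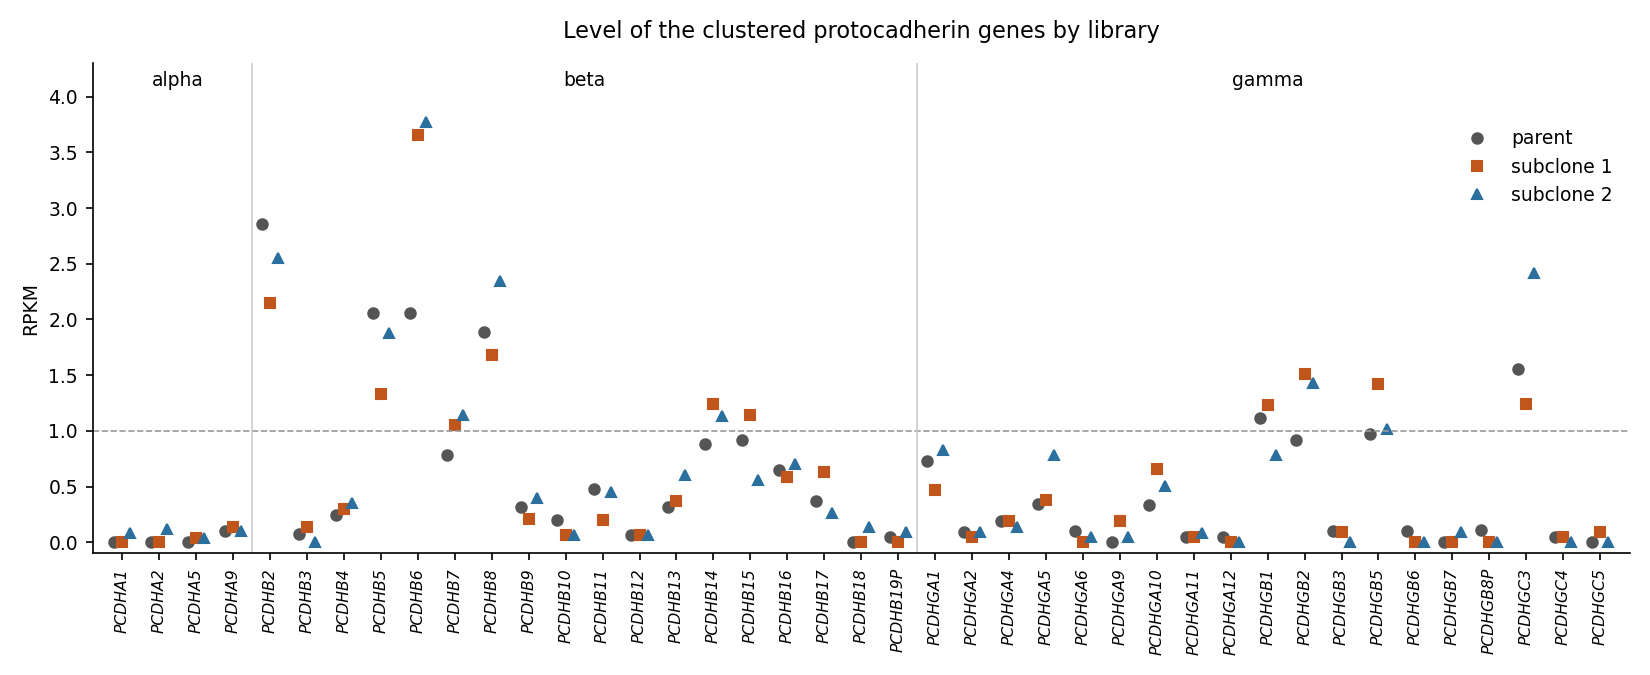
RPKM (y axis) of the 41 clustered members (x axis, by class and number) in the parent (circles), subclone 1 (squares) and subclone 2 (triangles), with 1 library each and a dashed line at 1. Most members lie below 1 in all libraries, PCDHB2 leads in the parent with 2.85 and PCDHB6 in the subclones with 3.65 and 3.77.

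Below the mean RPKM of 1, single ratios of clustered members carried little information. Of the 96 ratios of these 32 genes, 10 reached 2-fold on the log2 scale, from 7 genes, and 0 of these 10 had an interval that left out 1. Over all 41 clustered members, 17 were above and 20 below the parent in subclone 1, and 22 were above and 18 below it in subclone 2. In subclone 2 against subclone 1, 21 stood higher and 17 lower.

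Summed over a class, the libraries differed mainly in the non-clustered genes. Their summed RPKM was 4.44 in the parent cells, 12.6 in subclone 1 and 12.4 in subclone 2, and PCDH7 alone gave 81.1% of it in the parent cells, 89.9% in subclone 1 and 84.7% in subclone 2. The ratio of summed reads over the parent was 2.93 in subclone 1 (2.44 to 3.52) and 2.82 in subclone 2 (2.35 to 3.39). Without PCDH7 the log2 ratio of the summed RPKM was 0.56 in subclone 1 over the parent and 1.09 in subclone 2 over the parent, in place of 1.49 and 1.46.

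The summed RPKM of the beta class was 14.2 in the parent cells, 14.8 in subclone 1 and 16.5 in subclone 2, and that of the gamma class 6.80, 7.61 and 8.25. For beta the ratio of summed reads over the parent was 1.05 in subclone 1 (0.854 to 1.28) and 1.17 in subclone 2 (0.966 to 1.43), so the intervals held 1. For gamma both intervals also held 1. All 41 clustered members together had 333 reads in the parent cells, 370 in subclone 1 and 424 in subclone 2. Their ratio in subclone 2 over the parent was 1.21 with an interval just above 1 (1.05 to 1.40), and in subclone 1 over the parent it was 1.08 (0.931 to 1.26). Single genes weighed on the subclone 2 sums. Without PCDHB6 the log2 ratio of the summed beta RPKM over the parent was 0.07 in place of 0.22. Without PCDHGC3 that of the gamma class was 0.15 in place of 0.28. The sum of all 41 was not run without these genes.

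**Figure D4:**
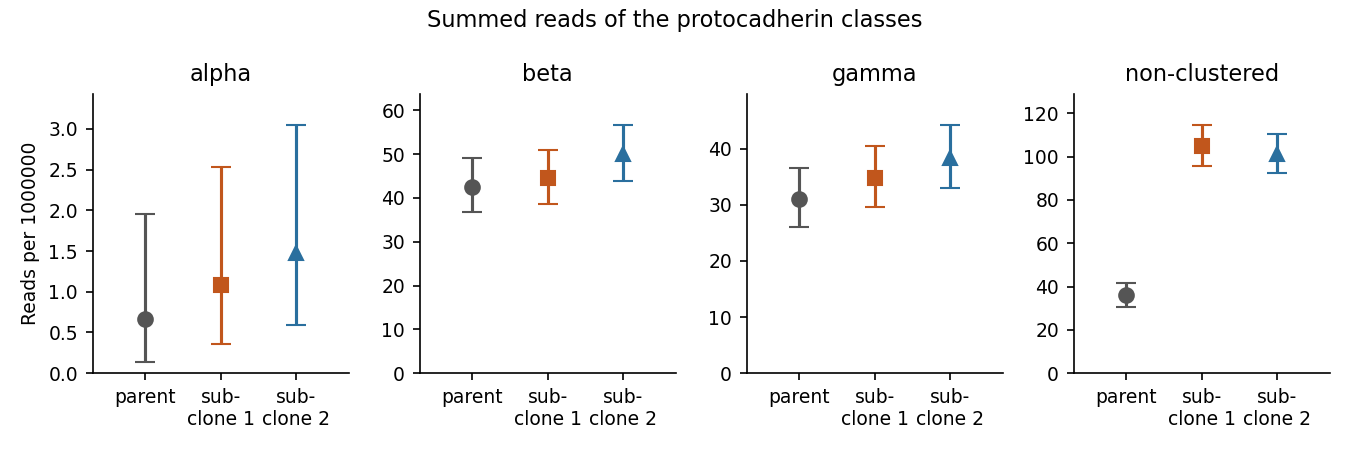
Summed reads, divided by the library total (y axes, each from 0) of the alpha, beta, gamma and non-clustered members in 3 libraries (x axes), where bars are exact 95% Poisson intervals of the summed reads. The non-clustered class stands apart in the parent with 161 reads, against 484 and 478 in the subclones, while the intervals of the other classes overlap.

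Genes linked to protocadherins were taken from lists drawn up from textbook knowledge. For promoter choice, cohesin and chromatin, 23 of 28 genes had a mean RPKM of at least 1, and 0 of these were 2-fold higher or lower in any pair. Over all genes 4.90% were higher and 1.82% lower in subclone 1 over the parent, and 5.33% and 2.16% in subclone 2. Between the subclones 1.42% were higher and 1.39% lower. With 23 genes, 0 cannot be set apart from these shares. CTCF, which binds clustered promoters, had an RPKM of 22.8 in the parent cells, 18.3 in subclone 1 and 18.8 in subclone 2. Its ratio over the parent was 0.805 in subclone 1 (0.694 to 0.933) and 0.825 in subclone 2 (0.713 to 0.954), under 2-fold but with intervals that left out 1. Intervals that left out 1 were found for 2 genes above and 10 below the parent in subclone 1, and for 0 above and 9 below in subclone 2, beside 20.1% of all genes above and 19.1% below in subclone 1 and 22.9% and 18.1% in subclone 2. SMCHD1, a chromatin protein known to repress clustered protocadherins, had an RPKM of 19.6 in the parent cells, 10.5 in subclone 1 and 12.6 in subclone 2, with ratios over the parent of 0.537 (0.476 to 0.606) and 0.644 (0.575 to 0.721). DNMT3B, a DNA methyltransferase, stood the other way at 2.25, 3.89 and 3.26, with ratios of 1.73 (1.18 to 2.56) and 1.45 (0.974 to 2.17). The methyltransferase DNMT1, at higher levels, stood below the parent, with an RPKM of 35.2, 29.4 and 29.6 in the same order. Its ratios were 0.837 (0.758 to 0.925) and 0.841 (0.762 to 0.929), so the methyltransferases did not move alike. The median log2 ratio of the list was -0.17 in subclone 1 over the parent and -0.14 in subclone 2 over the parent.

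Of the 9 genes of proteolytic processing, the cleavage of protocadherins by ADAM proteases and gamma-secretase among them, all passed the minimum, and 2 were at least 2-fold above the parent in subclone 1, where 4.90% of all genes were. APH1B, a subunit of gamma-secretase, had an RPKM of 1.43 in the parent cells, 3.71 in subclone 1 and 2.32 in subclone 2, with a ratio of 2.60 in subclone 1 over the parent (1.65 to 4.20). MMP14, a membrane-bound metalloprotease, had 8.08, 17.9 and 15.8 RPKM, and its ratio in subclone 1 over the parent was 2.21 (1.79 to 2.74). Neither reached 2-fold in subclone 2 over the parent, and no gene of the list was 2-fold lower. Intervals that left out 1 were found for 7 of the 9 genes above and 0 below the parent in subclone 1. In subclone 2 they were found for 6 above and 0 below. Of all genes, 20.1% in subclone 1 and 22.9% in subclone 2 stood above the parent, and 19.1% and 18.1% below it. The ratio of subclone 2 over subclone 1 was 0.623 for APH1B (0.421 to 0.915) and 0.886 for MMP14 (0.747 to 1.05).

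Of 34 cytoplasmic partners and signalling genes, 28 passed the minimum and 1 exceeded the parent 2-fold in each subclone, a share no higher than the 4.90% and 5.33% over all genes. PTK2B, the kinase PYK2 that clustered protocadherins are known to bind and inhibit, had an RPKM of 2.06 in the parent cells, 4.98 in subclone 1 and 6.60 in subclone 2. Its ratio over the parent was 2.41 in subclone 1 (1.69 to 3.51) and 3.20 in subclone 2 (2.27 to 4.58). The median log2 ratios of this list were -0.10 and -0.01. Intervals that left out 1 were found for 9 genes above and 10 below the parent in subclone 1, and for 10 and 10 in subclone 2. Of all genes, 20.1% stood above and 19.1% below the parent in subclone 1, and 22.9% and 18.1% in subclone 2. In subclone 2 over subclone 1, 11 of the 28 genes stood higher and 4 lower, against 11.7% and 8.57% of all genes.

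The other cadherin genes included several calls. Of 48 genes, 36 were listed and 15 passed the minimum. Of the 15, 5 exceeded the parent at least 2-fold in each subclone, with 0 lower, where 4.90% and 5.33% of all genes were higher. Intervals that left out 1 were found for 11 of the 15 above and 1 below the parent in subclone 1. In subclone 2 they were found for 10 above and 1 below. Of all genes, 20.1% in subclone 1 and 22.9% in subclone 2 stood above the parent, and 19.1% and 18.1% below it. CDH1, the epithelial E-cadherin, had an RPKM of 2.08 in the parent cells, 8.97 in subclone 1 and 12.3 in subclone 2. CDH6, a kidney and fetal cadherin, had 9.49, 30.4 and 26.5, and CDH17, the liver-intestine cadherin, had 53.8, 123 and 165. All 3 stood at more than 2-fold the parent in both subclones, as did CDHR2 (2.17, 6.59 and 12.9) and CDHR5 (2.23, 4.79 and 5.46), which link the microvilli of brush borders. The median log2 ratio of the 15 was 0.52 in subclone 1 over the parent and 0.70 in subclone 2 over the parent. For the 10 protocadherins it was 0.29 and 0.32. CELSR2 among the 15, and PCDHB14, PCDHGB2 and PCDHGB5 among the 10, reached the minimum only through the subclones.

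Of 12 genes next to or inside the clusters on chromosome 5, 10 passed the minimum, and 0 of these were 2-fold higher or lower in any pair. Over all genes 4.90% were higher and 1.82% lower in subclone 1 over the parent, and 5.33% and 2.16% in subclone 2. With 10 genes, 0 cannot be set apart from these shares. Intervals that left out 1 were found for 0 genes above and 2 below the parent in subclone 1, and for 1 above and 1 below in subclone 2. Of all genes, 20.1% had such an interval above and 19.1% below the parent in subclone 1, and 22.9% and 18.1% in subclone 2. TAF7, a general transcription factor gene inside the cluster, had an RPKM of 47.2 in the parent cells, 43.5 in subclone 1 and 47.8 in subclone 2, above every protocadherin.

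**Figure D5:**
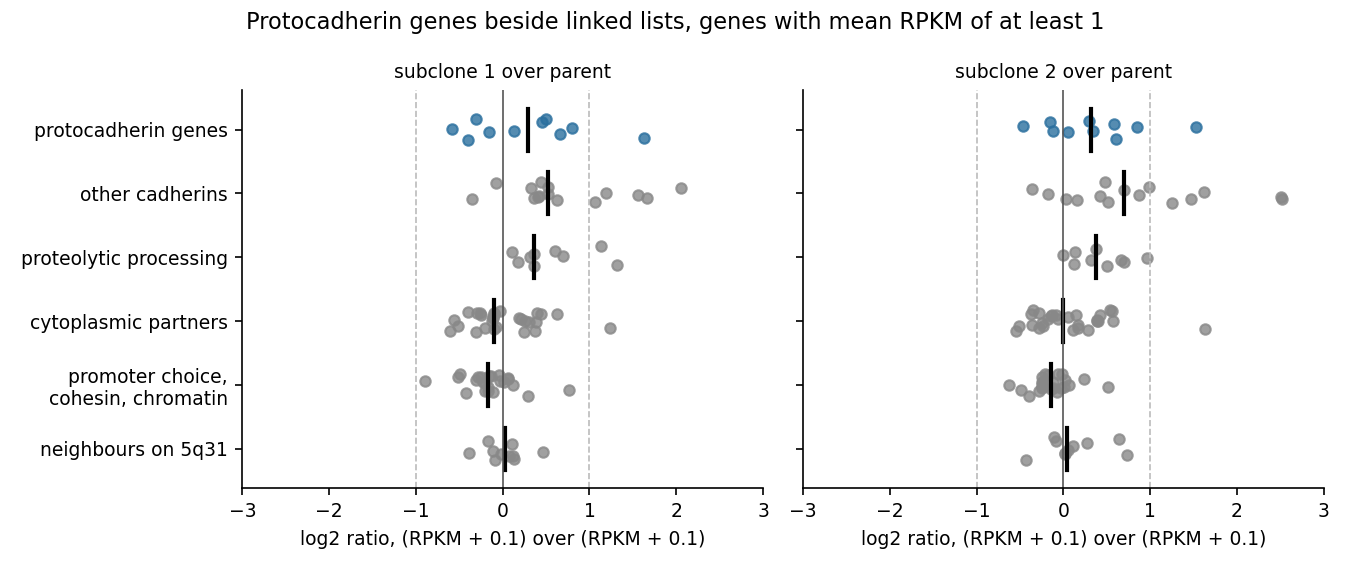
Log2 ratio over the parent on (RPKM + 0.1) (x axes) of genes whose mean RPKM reached 1, in subclone 1 (left) and subclone 2 (right), with 1 point per gene, black bars at the median of each list (rows) and dashed lines at 2-fold. The medians of the 10 protocadherins are 0.29 and 0.32, those of 15 other cadherins 0.52 and 0.70, and those of the neighbours on chromosome 5 lie near 0. PCDHB14, PCDHGB2, PCDHGB5 and CELSR2 reached the minimum only through the subclones.

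Cell type markers were read beside these values. Of 9 hepatocyte markers, 8 were above 0 in all libraries, with a summed RPKM of 24.5 in the parent cells, 113 in subclone 1 and 106 in subclone 2. ALB, the gene of albumin, was 2.46, 49.5 and 68.8 RPKM, the largest single value in both subclones. Of the 6 hepatocyte markers with a mean RPKM of at least 1, 4 were at least 2-fold above the parent in subclone 1 and 3 in subclone 2. Others did not follow the sum. HNF4A had a ratio over the parent of 1.01 in subclone 1 (0.817 to 1.26) and 1.37 in subclone 2 (1.12 to 1.67). TF was 5.71 in the parent cells, 30.3 in subclone 1 and 5.88 in subclone 2. TTR was listed in subclone 2 alone, with 1 read. Of 9 neural markers, 4 were above 0 in all libraries with SNAP25 and ELAVL4 at 0, and their sum was 75.9 in the parent cells, 42.7 in subclone 1 and 41.3 in subclone 2, most of it TUBB3. Of 7 endothelial markers, 4 were above 0 in all libraries with TIE1 and CLDN5 at 0, and the sums were 5.11, 11.9 and 7.60. The fibroblast sums were 15.7, 31.2 and 24.3 over 8 markers, of which 4 were above 0 in all libraries and PDGFRA and PDGFRB at 0. Most of that sum was LUM (10.1, 24.0 and 21.0), while COL3A1 went the other way (4.42, 2.21 and 0.463), with a ratio in subclone 2 over the parent of 0.105 (0.0524 to 0.190). The 6 leukocyte markers summed to 84.4, 126 and 111, mostly from CD68, with 3 above 0 in all libraries and CD3E at 0. The part of these differences in the protocadherin values was not tested.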

How the data were processed

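The authors deposited RPKM values by Entrez number and symbol, 1 file per library, listing genes above 0. Libraries had been prepared with an Illumina TruSeq kit from Trizol-extracted RNA, and the submitters' processing notes name the build hg19. Aligner, counting tool, annotation, strand and the handling of reads shared between genes were not given in the sources used here. Each group held 1 library, so no test was made. The members and lists were chosen with earlier results of these data known.

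Levels were compared on log2(RPKM + 0.1) among the 11370 genes whose mean RPKM reached 1, with 2-fold as the limit. Because RPKM are reads divided by length and total, totals were read from 422 genes that had the same reads in the parent as in subclone 1, and lengths were matched to GENCODE version 29 transcripts. A length within 0.3% of a transcript was preferred, then the smallest length not under 0.5 times the median transcript nor over 2 times the longest, then a multiple within 5%. Reads were accepted as whole within 0.003. Resolved genes held 97.1%, 97.1% and 97.2% of the totals of 4488825, 4609696 and 4725150 reads in the parent, subclone 1 and subclone 2. Reads that share a divisor can be misjudged by a whole multiple, which changes interval widths but not ratios. PCDH11X could not be resolved. The steps were tested on simulated data. Exact 95% intervals (Poisson for levels, Clopper-Pearson for ratios) hold counting error alone, and 3 reads were taken as the limit of a value of 0.

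Values were given for members with a mean RPKM of at least 1, members 2-fold different with an interval without 1, and all non-clustered members, except that PCDH11X and PCDH11Y were given by their highest value. Linked genes were named where 2-fold different with a mean RPKM of at least 1, with CTCF. TAF7, SMCHD1, DNMT3B, DNMT1, the marker genes, the alpha genes and single weak members were named after their values were seen. Promoters came from RefSeq (GRCh38.p14). Alternatives were other pseudocounts, scalings, filters and folds. Python 3.11.15, numpy 2.4.6, pandas 2.3.3, scipy 1.17.1 and matplotlib 3.10.9 were used.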

Additional observations from a re-analysis of the deposited data

How the results depend on the processing

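No paired analysis was possible because each group held 1 library. Pseudocounts of 0.01 and 1 and 3 other scalings were tried. The pseudocount of 1, which lowers low genes by construction, put the log2 ratio of PCDH1 over the parent at 0.90 in subclone 1 and 1.31 in subclone 2, and that of PCDH9 at -0.54 and -0.38, under 2-fold. The log2 ratio of PCDH7 ranged between 1.43 and 1.66 in subclone 1, and between 1.33 and 1.55 in subclone 2. Scaling alone kept PCDH9 at -1.80 to -1.79 and -1.10 to -1.07.

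Counts of members followed the filter and the fold. With no filter, 3 members were higher and 2 lower in subclone 1 over the parent, 5 higher and 2 lower in subclone 2 over the parent, and 2 higher and 2 lower in subclone 2 over subclone 1. Of all genes 9.43% were higher and 5.47% lower, 9.62% and 5.83%, and 5.21% and 5.59% in these pairs. The members added, PCDHGA9, PCDHB18, PCDHA2, PCDHGA5, PCDHGB8P, PCDHB17 and PCDHB3 in one pair or another, had intervals that held 1; PCDH1 and PCDH9 had not, over the parent. A minimum of 0.5 gave 2 higher over the parent in each subclone, against 6.22% and 6.57%. At 1.5-fold, 3 were higher and 1 lower in subclone 1 over the parent (all genes 11.6% and 7.46%), 3 higher in subclone 2 over the parent (12.7%), and 1 higher and 1 lower between the subclones (4.75% and 4.11%). For the linked genes, 8 were higher in subclone 1 and 6 in subclone 2 over the parent, with 0 lower. Over all genes 4.90% and 5.33% were higher and 1.82% and 2.16% lower. With no filter the linked counts became 13 higher and 2 lower, 10 higher and 2 lower, and 1 higher and 4 lower between the subclones. At 1.5-fold they became 13 higher and 2 lower, 14 higher and 1 lower, and 2 higher and 1 lower between the subclones. The shares of all genes at these 2 settings are those given above, with 7.30% lower at 1.5-fold in subclone 2 over the parent. A pseudocount of 1 or a minimum of 5 left 5 linked genes higher in subclone 1, against 3.05% and 2.84% of all genes. The number of linked genes changes with the filter, so these counts cannot be compared directly with the shares.

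Without PCDH7, the log2 ratio of the summed non-clustered RPKM was 0.56 and 1.09 over the parent, and 0.53 between the subclones in place of -0.02. No alpha member had a mean RPKM of at least 1, so that sum was not run. Depth limits most members, since 18 of the 41 clustered ones had at most 3 reads in every library, and nothing here measures the spread between cultures.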
